A study of Mus musculus with 8 samples.

Results

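The Reg family is a group of small secreted proteins of the C-type lectin fold. Its 7 mouse members, Reg1, Reg2, Reg3a, Reg3b, Reg3d, Reg3g and Reg4, were taken by gene symbol from 29621 genes measured in bulk pancreas. They were compared between 2 genotypes of a mouse pancreatic cancer model, with 4 RNA sequencing libraries each. All mice were of strain C57BL/6 and at postnatal day 42. KPC mice carried p48-Cre, a Cre recombinase driven from the p48 locus (Ptf1a), which acts in the pancreatic epithelium and not in stroma or immune cells. Cre activates an oncogenic allele in these mice, and their Trp53 gene was floxed (Trp53 fl/fl). KPC-OG mice carried all of these alleles and, in addition, R26 tm1(LSL-OG), an OG construct at R26 that depends on Cre. Every library thus came from a pancreas with the cancer alleles, and no normal pancreas was analysed here. The comparison asks how the pancreas of the model with the OG allele, presented as its antigenic version, differs from that of the model without it. Whether the libraries of a genotype came from separate mice is not stated in the labels, and p-values cover only the spread among the libraries, which may be technical.

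Reg proteins are made in large amounts by the exocrine pancreas and by the gut. Reg1 and Reg2, related to the pancreatic stone protein lithostathine, are secreted by acinar cells with the digestive enzymes. Reg3b, first known as pancreatitis-associated protein, and Reg3g are acute-phase and antibacterial lectins, which cytokines such as IL-22 and IL-6 induce through the transcription factor STAT3. Reg3a belongs to the same pancreatitis-associated group, Reg3d is related to islet neogenesis-associated protein, and Reg4 is a more distant relative best known from the intestine. The heparan sulphate glycosyltransferase Extl3 has been described as a binding partner of Reg proteins.

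Of the 7 genes, 6 lie within 98.2 kb of chromosome 6, from 78370657 to 78468872 in GRCm38. In order along the chromosome they are Reg3b (ENSMUSG00000071356), Reg3d (ENSMUSG00000068341), Reg3a (ENSMUSG00000079516), Reg2 (ENSMUSG00000023140), Reg1 (ENSMUSG00000059654) and Reg3g (ENSMUSG00000030017). Reg3d and Reg3g are on the minus strand and the other members of the cluster on the plus strand. Reg4 (ENSMUSG00000027876) is apart from them on chromosome 3, from 98222156 to 98236748. The coding sequences of Reg1 and Reg2 were 82.6% identical, those of Reg3b and Reg3g 76.4%, and those of Reg3a and Reg3b 74.7%. Reg3d shared only 64.8% to 66.3% with the other Reg3 genes. Reads were assigned through runs of 20 bases, and between 0% (Reg1, Reg2) and 2.62% (Reg3b) of a member's distinct 20-base runs also occurred in another gene. Reads of the members could therefore be told apart over nearly all of their length.

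The ratios of Reg3b and Reg3g to Reg3a and Reg3d were the largest differences between members (described below, none past the adjusted threshold), so the stretch before the start of each of these 4 genes is shown. Each line gives 150 bases of the gene's strand, from 175 to 26 bases before the RefSeq start (GRCm38.p6). Capitals mark matches to TTCNNNGAA, the core of STAT sites, and to CANNTG, the E-box that Ptf1a and other bHLH factors recognise.
Reg3b, chr6:78370710-78370859, plus strand: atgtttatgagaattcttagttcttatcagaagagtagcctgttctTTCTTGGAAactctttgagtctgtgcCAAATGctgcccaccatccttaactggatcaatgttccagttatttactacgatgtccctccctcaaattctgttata
Reg3g, chr6:78468900-78469049, minus strand: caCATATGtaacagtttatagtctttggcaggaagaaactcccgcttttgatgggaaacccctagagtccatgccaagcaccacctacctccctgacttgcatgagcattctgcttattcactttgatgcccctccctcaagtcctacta
Reg3a, chr6:78380534-78380683, plus strand: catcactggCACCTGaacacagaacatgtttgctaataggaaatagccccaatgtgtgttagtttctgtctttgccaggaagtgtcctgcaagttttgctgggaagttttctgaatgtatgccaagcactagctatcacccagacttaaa
Reg3d, chr6:78378891-78379040, minus strand: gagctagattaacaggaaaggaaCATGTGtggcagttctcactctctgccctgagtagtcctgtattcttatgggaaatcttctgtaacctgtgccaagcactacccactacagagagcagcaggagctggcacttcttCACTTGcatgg

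The run tgccaagcac is held by Reg3a, Reg3d and Reg3g, and the run ccctccctcaa by Reg3b and Reg3g. Aligned over their windows, Reg3a and Reg3d were 70.2% identical, Reg3d and Reg3g 63.8%, Reg3b and Reg3g 62.8%, Reg3b and Reg3d 61.4%, Reg3a and Reg3g 50%, and Reg3a and Reg3b 49.6%. Over the full promoters, from 250 bases before to 50 after the start and on both strands, TTCNNNGAA matched in Reg3b, 129 bases before the start, and in Reg3d, 238 bases before the start and outside the window shown. It matched in 8.30% of 32851 mouse promoters of the same length. CANNTG matched in all 7 members and in 72.3% of promoters. CAAGGTCA, the site of Nr5a2, matched in no member and in 1.56% of promoters, and the GATA site AGATAA matched only in Reg4 and in 11.2% of promoters. These matches are letters in a sequence and no measure of binding. The Reg3b window lies in an intron of 1 longer Reg3b transcript model of GENCODE, and none of the windows overlaps an annotated exon.

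Total estimated reads ran from 7373286 to 11292570 in the KPC libraries and from 13671606 to 18292115 in KPC-OG. The make-up of the libraries differed between the genotypes. Lars2, a gene for a mitochondrial tRNA synthetase, took 24% ± 4.06 (SD, n = 4) of gene reads in the KPC libraries against 5.35% ± 1.74 (SD, n = 4) for KPC-OG, and TMM scaling factors ran from 0.483 to 0.653 and from 1.14 to 2.28. TMM sets levels relative to the typical gene. It placed the median log2 fold change of all 14267 genes tested at 0.09, against 1.82 with library sizes alone. Fold changes below therefore depend on which of these scales is read, and some change direction with it. Library KPC-OG 3 stood apart from its group. Its 29 acinar enzyme genes held 49.9% of reads, against 23.0% to 35.9% in the other KPC-OG libraries and 40.1% to 48.8% in KPC. Liver genes were high in KPC-OG 2 and KPC-OG 3 (Alb at 177 and 194 TMM-scaled CPM) and low in the other KPC-OG libraries (4.54 and 5.51). Trp53, floxed in both genotypes, lay at 3.06 to 5.26 CPM in KPC and at 5.70 to 8.51 CPM in KPC-OG. It checks no label, and 17.6% of all genes tested were higher in KPC-OG without overlap.

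Reg1, Reg2, Reg3a and Reg3b were among the most abundant transcripts of both genotypes. Together the 7 Reg genes held 4.27% ± 0.813 (SD, n = 4) of TPM, the deposited length-corrected level within a library, in KPC, against 5.23% ± 1.33 (SD, n = 4) for KPC-OG. By mean TPM, Reg2 ranked 17 among all genes in KPC and 10 in KPC-OG, and Reg3a 31 and 35. Reg3d ranked 74 and 167, and Reg3g 89 and 105. The order within the family was Reg2, Reg1, Reg3b and Reg3a in both genotypes, with means of 14952, 11008, 6843 and 3572 TPM in KPC and 17918, 14557, 12236 and 3651 TPM in KPC-OG. Each neighbour in that order was above the next in 4 of 4 libraries of each genotype, except that Reg1 was above Reg3b in 3 of 4 KPC libraries. The lower end of the order differed. Reg3d was above Reg3g in 4 of 4 KPC libraries, and Reg3g was above Reg3d in 4 of 4 KPC-OG libraries. Reg4 had no read in any KPC library and 2 rounded reads in KPC-OG 4, too few for a test. Without a read in KPC, counting error alone would allow up to 0.148 CPM of Reg4 there. The reads in KPC-OG 4 came to 0.0595 CPM.

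**Figure D1:**
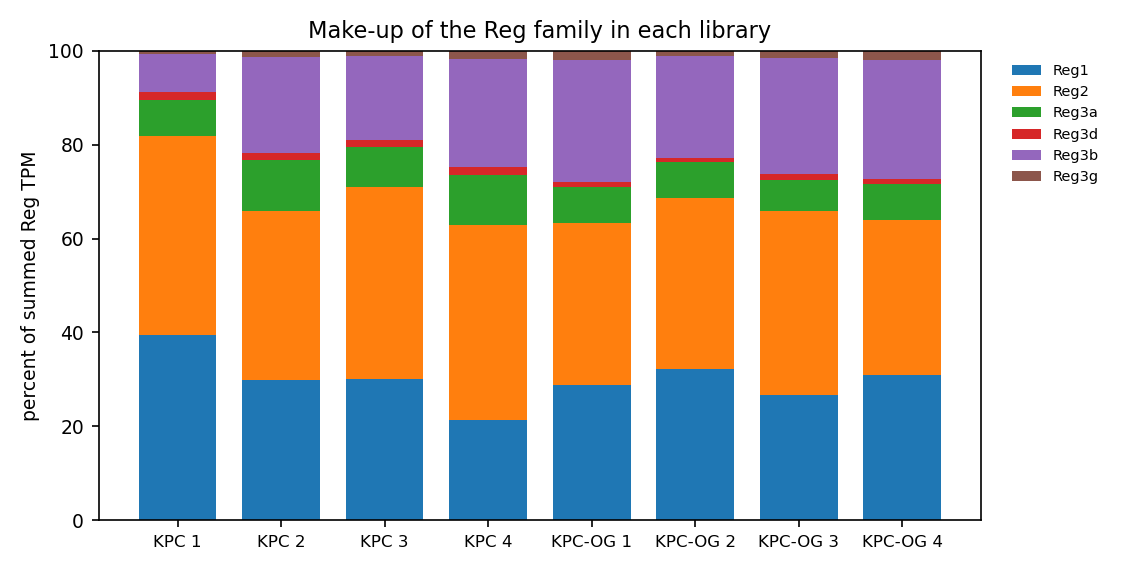
Share of the summed Reg TPM that each member held in each library, in percent, as stacked bars (Reg4 is too low to draw). Reg3b held 17.4% on average in KPC and 24.4% in KPC-OG, and its lowest share, 8.17%, was in KPC 1.

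Reg1 and Reg2, the abundant acinar members, were lower in KPC-OG when read against the typical gene. Reg1 stood at 11982, 10712, 10567 and 8179 TMM-scaled CPM in KPC libraries 1 to 4 and at 5900, 3619, 7200 and 2631 CPM in KPC-OG libraries 1 to 4. Reg2 stood at 11599, 11556, 12877 and 14335 CPM in KPC and at 6368, 3670, 9566 and 2534 CPM in KPC-OG. For both genes every KPC library lay above every KPC-OG library, and KPC-OG 3 was the highest of its group. Reg1 fell by 1.10 ± 0.39 (SE) on the log2 scale (edgeR adjusted p = 0.0497), a call at the edge of the threshold of 0.05 that was lost when any library but KPC-OG 3 was left out (adjusted p up to 0.131). Reg2 had a log2 fold change of -1.19 ± 0.44 (SE) and missed the threshold (edgeR adjusted p = 0.0591, 95% interval -2.16 to -0.21). It passed without KPC-OG 3 (-1.57, edgeR adjusted p = 0.00405), with DESeq2 (adjusted p = 0.00401) and with limma-voom (adjusted p = 0.0307). In bulk tissue, fewer cells that make a transcript and less of it per cell cannot be told apart.

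Reg3a and Reg3d were also lower in KPC-OG against the typical gene. Reg3a stood at 2534, 4163, 3303 and 4379 CPM in KPC libraries 1 to 4 and at 1714, 943, 1905 and 716 CPM in KPC-OG. Reg3d stood at 514, 552, 538 and 683 CPM in KPC and at 202, 96.9, 380 and 93.9 CPM in KPC-OG. The genotypes did not overlap for either gene, and KPC-OG 3 was again the highest of its group. Reg3a fell by 1.45 ± 0.37 (SE) on the log2 scale (edgeR adjusted p = 0.0134) and Reg3d by 1.56 ± 0.42 (SE; edgeR adjusted p = 0.0185). Both calls held when any 1 library was left out, and Reg3d fell by 2.11 without KPC-OG 3.

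Reg3b and Reg3g, the acute-phase members, overlapped between the genotypes. Reg3b stood at 2453, 7203, 6207 and 8754 CPM in KPC and at 5280, 2404, 6583 and 2128 CPM in KPC-OG. Reg3g, at a far lower level, stood at 190, 516, 365 and 642 CPM in KPC and at 391, 140, 431 and 176 CPM in KPC-OG. The pair ranked the libraries almost alike, with KPC 4 highest, KPC 1 low, and KPC-OG 2 and KPC-OG 4 low. Reg3b had a log2 fold change of -0.59 ± 0.49 (SE; edgeR adjusted p = 0.385, 95% interval -1.68 to 0.50) and Reg3g one of -0.59 ± 0.45 (SE; edgeR adjusted p = 0.337, 95% interval -1.59 to 0.41). Those intervals hold both a fall of the size seen for Reg1 and a small rise.

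In all, 3 of the 6 members tested were called lower with edgeR and none higher. Over all 14267 genes tested, 16.6% were called lower and 17.4% higher. The genotypes did not overlap for 4 members, all lower in KPC-OG, where 17% of all genes were lower without overlap. The median log2 fold change of the 6 members was -1.14, against 0.09 for all genes tested.

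**Figure D2:**
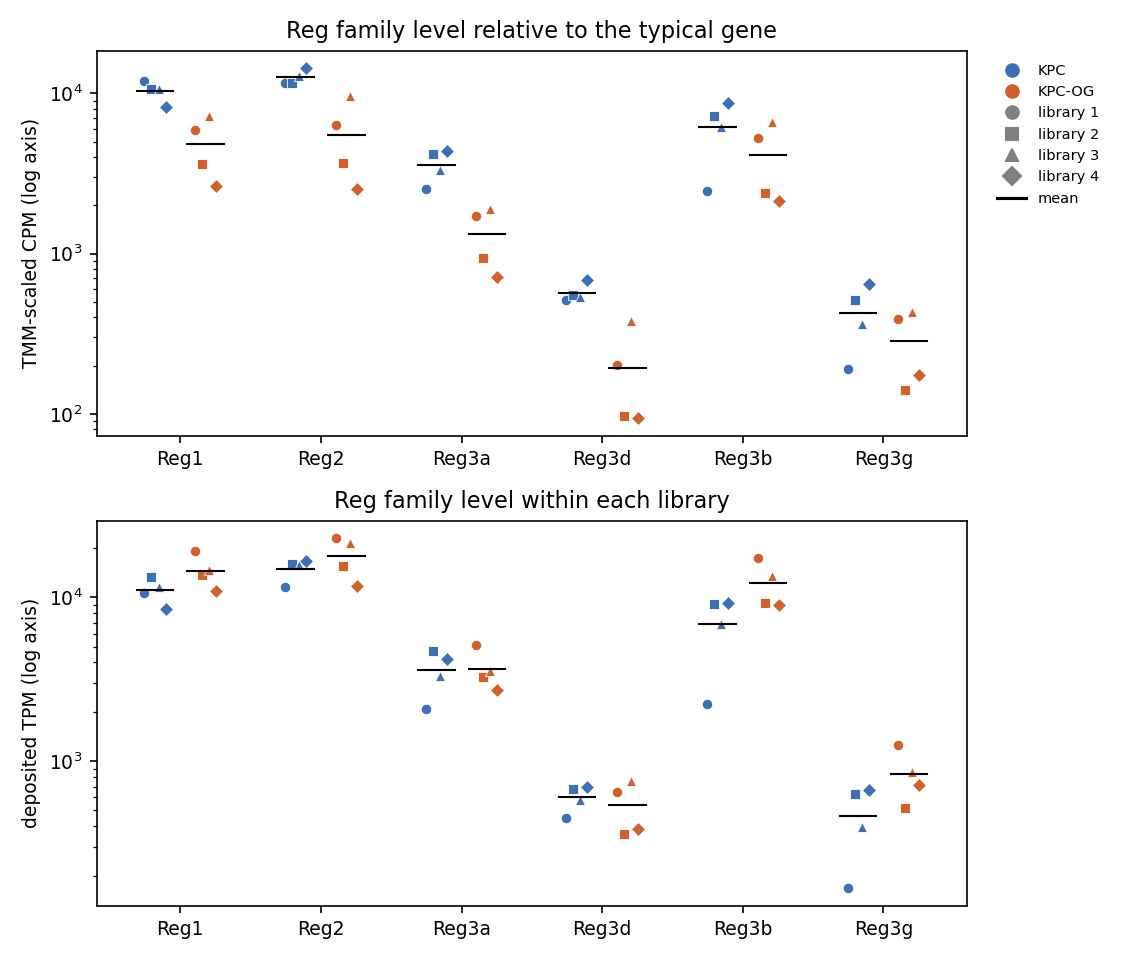
Level of the 6 tested members in each library, as TMM-scaled CPM (top) and deposited TPM (bottom), both on log axes, with bars at group means. KPC-OG libraries of Reg1, Reg2, Reg3a and Reg3d lie below all KPC libraries in CPM, while in TPM the groups of every member overlap.

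The direction depended on the scale. In TPM, which takes no account of the different make-up of the libraries, Reg3b read 2216, 9039, 6901 and 9217 in KPC libraries 1 to 4 and 17299, 9229, 13492 and 8922 in KPC-OG. Reg3g read 168, 632, 399 and 663 TPM in KPC and 1249, 520, 863 and 716 TPM in KPC-OG. Reg3d read 450, 672, 582 and 699 TPM in KPC and 644, 362, 758 and 385 TPM in KPC-OG. On this scale Reg3b and Reg3g were high in most KPC-OG libraries, and Reg3d showed no order by genotype. Tested on log2(TPM + 1) with limma, Reg3b and Reg3g rose by 0.98 ± 0.42 and 0.96 ± 0.41 (SE; adjusted p = 0.0418 and 0.0407). The other 4 tested members were not called, with 0.39 for Reg1, 0.22 for Reg2, 0.06 for Reg3a and -0.21 for Reg3d. Library sizes without TMM gave the same picture, with 2 members called higher and none lower. Of all genes tested, 90.1% were called higher and 0.848% lower with TPM, and 91.7% higher and 0.694% lower with library sizes alone, so 2 of 6 members is a smaller share than in the table as a whole. DESeq2 and limma-voom each called 4 members lower and none higher. DESeq2 called 19.1% of all genes lower and 19.0% higher, and limma-voom 16.6% and 12.2%.

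**Figure D3:**
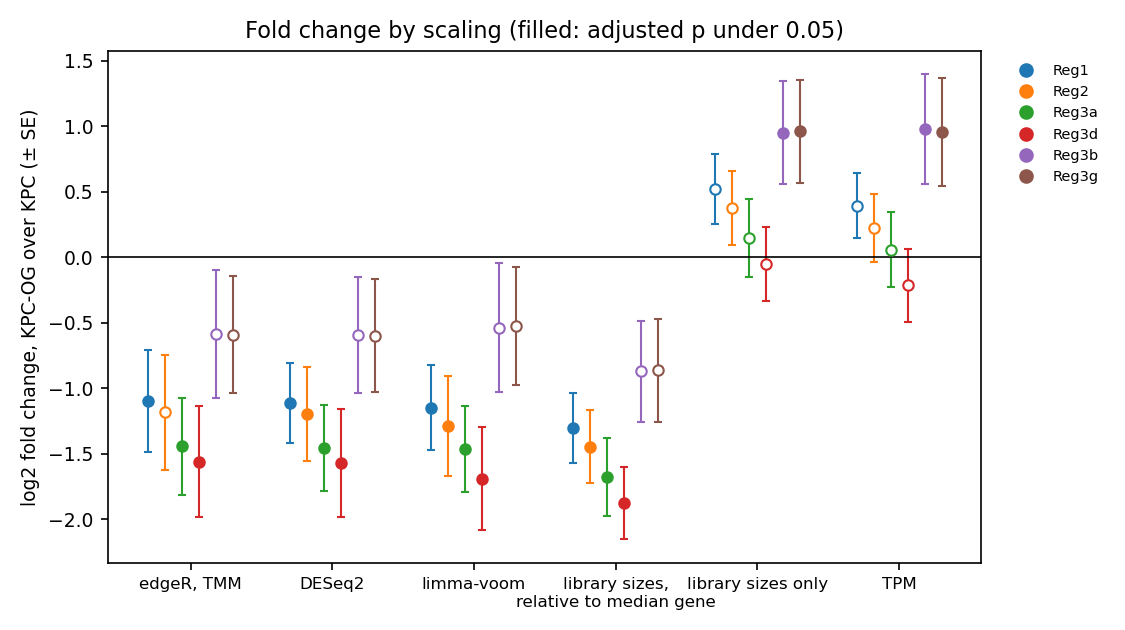
Log2 fold change, KPC-OG over KPC, of each tested member under 6 ways of scaling or testing, with bars of 1 SE and filled points where the adjusted p was under 0.05. The members keep much the same order, from Reg3d lowest to Reg3b and Reg3g highest, while the whole family moves from below 0 with TMM to around and above 0 with library sizes or TPM.

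Ratios between members of the same library do not depend on scaling between libraries. For each of the 15 pairs of tested members the log2 ratio of estimated reads was tested by exact permutation, two-sided, over 70 arrangements, which can give no p below 0.0286. The ratio of Reg3b to Reg3d was 4.77, 13.1, 11.5 and 12.8 in KPC libraries 1 to 4 and 26.1, 24.8, 17.3 and 22.7 in KPC-OG, so that every KPC-OG library was above every KPC library. Reg3g to Reg3d gave 0.371, 0.935, 0.678 and 0.941 in KPC and 1.93, 1.45, 1.13 and 1.87 in KPC-OG. These ratios did not overlap either. Reg3b to Reg3a gave 0.968, 1.73, 1.88 and 2.0 in KPC and 3.08, 2.55, 3.46 and 2.97 in KPC-OG. Reg3g to Reg3a gave 0.0751, 0.124, 0.110 and 0.147 in KPC and 0.228, 0.149, 0.226 and 0.246 in KPC-OG. This last ratio was barely separated, between KPC 4 and KPC-OG 2, and computed from TPM it overlapped. By reads, the ratios of Reg3b and Reg3g were higher in every KPC-OG library, by 2.29-fold and 2.28-fold over Reg3d and by 1.89-fold and 1.88-fold over Reg3a. Reg3b was also 1.69-fold higher against Reg2, and Reg2 1.36-fold higher against Reg3d.

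These 6 of the 15 ratios were the ones without overlap (exact permutation p = 0.0286 each, and 5 of 15 by TPM). None passed after adjustment over the 15 pairs (exact permutation, adjusted p = 0.0714). Each p was already the smallest the test can give, so the adjusted p was set by how many of the 15 pairs were without overlap. Among ratios of a member to a gene outside the family, 40.5% were without overlap, so the share within the family was near that background. Other ratios showed no such separation. Reg3b to Reg3g was 12.9 to 17 in KPC and 12.1 to 17.1 in KPC-OG, a 1.01-fold difference (exact permutation p = 0.971). Reg1 to Reg2 was 0.571 to 1.03 in KPC and 0.753 to 1.04 in KPC-OG (1.12-fold, exact permutation p = 0.543). KPC 1 held the lowest value of each of the ratios of Reg3b and Reg3g to Reg3a and Reg3d. Without it the fold changes of the Reg3b to Reg3d and Reg3b to Reg3a ratios were the smallest of those with 1 library left out, at log2 values of 0.85 and 0.68, and the genotypes still did not overlap.

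**Figure D4:**
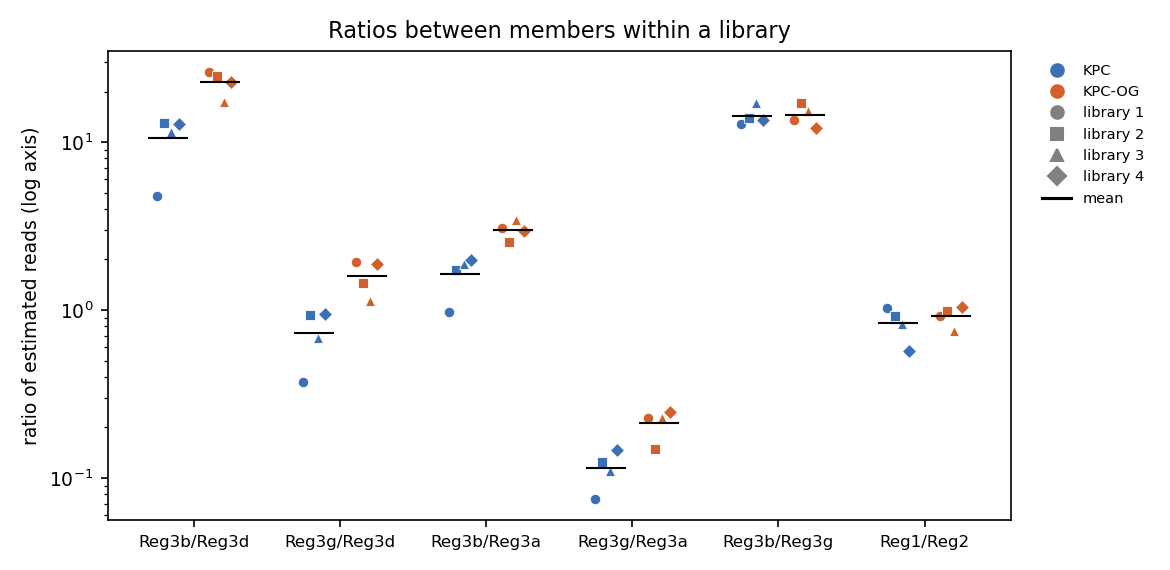
Ratio of estimated reads of named pairs of members in each library, on a log axis, with bars at group means. By reads, the 4 ratios of Reg3b or Reg3g to Reg3d or Reg3a are higher in all KPC-OG libraries, barely so for Reg3g to Reg3a, which overlapped by TPM, while Reg3b to Reg3g and Reg1 to Reg2 overlap.

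Reg members were next set against the acinar digestive enzymes of the same library. Of the 28 enzyme genes tested 18 fell and 1 rose against the typical gene, with a median log2 fold change of -1.95, beside a median of -1.14 for the tested Reg members. With TMM 16.6% of all genes were called lower and 17.4% higher. Amy2a2, Amy2a3 and Amy2a4, counted separately, had identical values in every library, and Amy2a5 nearly so. None of these was called (-1.76 each, edgeR adjusted p = 0.0520). With library sizes alone 8 enzymes were called lower and 3 higher, with a median of -0.39. On that scale 0.694% of all genes were called lower and 91.7% higher. The carboxypeptidase gene Cpb1 fell by 2.55 ± 0.58 (SE) and the ribonuclease gene Rnase1 by 2.41 ± 0.47 (SE; edgeR adjusted p = 0.00785 and 0.00378), and Amy1, a salivary and pancreatic amylase gene, by 1.88 ± 0.42 (SE; edgeR adjusted p = 0.00769). The enzyme that rose was the trypsinogen gene Prss3, by 3.16 ± 0.60 (SE; edgeR adjusted p = 0.00436). Per 1000 enzyme reads, Reg3b had 2.43, 9.83, 8.27 and 10.5 reads in KPC libraries 1 to 4 and 26.8, 18.4, 15 and 21 in KPC-OG. Reg1 had 11.9, 14.6, 14.1 and 9.83 in KPC and 30.0, 27.7, 16.4 and 26.0 in KPC-OG. For both genes every KPC-OG library was above every KPC library.

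By that ratio Reg3b and Reg3g were 2.94-fold and 2.93-fold higher in KPC-OG, Reg1 1.96-fold and Reg2 1.75-fold. All 4 were without overlap and passed an exact permutation test, two-sided (adjusted p = 0.0346 over 14260 gene symbols tested in the same way). With all 8 libraries, every gene without overlap had the smallest p of this test and was called. The calls are therefore no evidence beyond the lack of overlap. Reg3a (1.56-fold, exact permutation adjusted p = 0.119) and Reg3d (1.29-fold, exact permutation adjusted p = 0.0909) overlapped between the genotypes. Most genes rose against the enzymes, since 82.2% of all genes were called higher and 0.344% lower on this measure and the median gene was 4.81-fold higher. By mean ratio the 6 members therefore lay between the enzyme total, though not every single enzyme, and the median gene. Of all genes, 1.96% (Reg3d) to 14.4% (Reg3b) were below them. With 1 library left out, these calls were lost in part, although the 4 members stayed without overlap. Fewer arrangements were then left, but the smallest p the exact permutation test can give stayed at 0.0286. All 4 were lost without any of KPC 1 to KPC 4 (exact permutation, adjusted p 0.0654 to 0.0686), Reg3b and Reg3g also without KPC-OG 1 (exact permutation, adjusted p = 0.0651), and Reg3g without KPC-OG 4 (exact permutation, adjusted p = 0.0669).

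**Figure D5:**
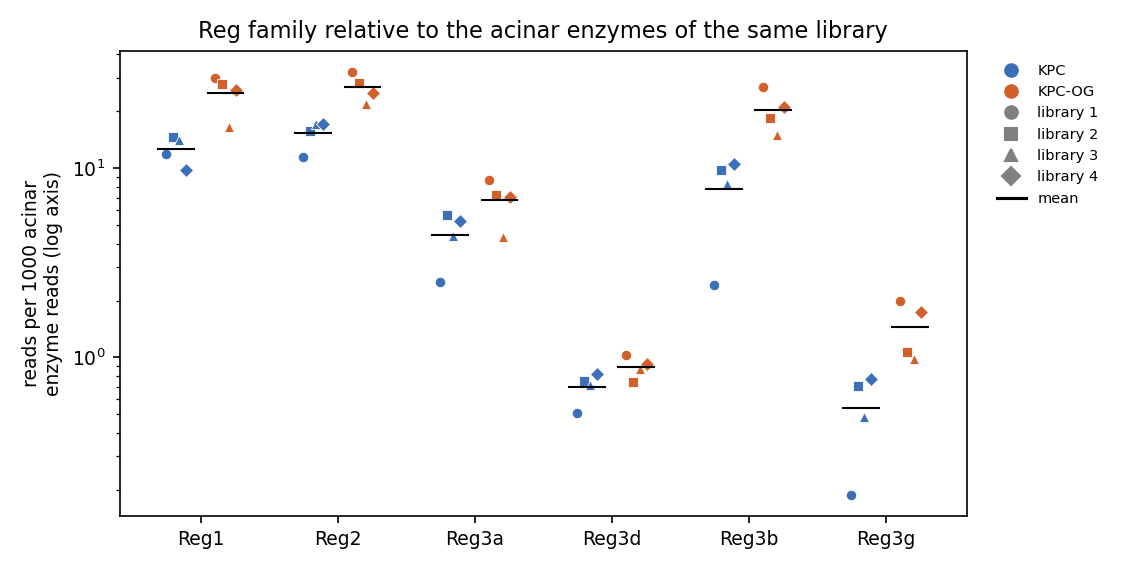
Reads of each tested member per 1000 reads of the 29 acinar enzyme genes in the same library, on a log axis, with bars at group means. Reg1, Reg2, Reg3b and Reg3g are higher in every KPC-OG library than in any KPC library, and KPC 1 is the lowest of its group for 5 of the 6 members and KPC 4 for Reg1.

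Other genes of the acinar cell were lower in KPC-OG too on the TMM scale. That scale had 16.6% of all genes called lower and 17.4% higher. Of 10 granule and secretory proteins 9 fell and none rose, with a median of -1.94. The zymogen granule gene Cuzd1 fell by 2.26 ± 0.38 (SE), and Rab3d, a GTPase of secretory granules, by 1.47 ± 0.21 (SE; edgeR adjusted p = 0.00193 and 0.00107). Of 9 transcription factors of the acinar programme 7 fell and none rose, with a median of -1.03. Rbpjl, the partner of Ptf1a, fell by 1.59 ± 0.27 (SE), Gata4 by 1.15 ± 0.13, the nuclear receptor gene Nr5a2 by 1.21 ± 0.20 and Xbp1, a regulator of the secretory pathway, by 0.95 ± 0.19 (edgeR adjusted p = 6.13e-04 to 0.00383). The direction of the transcription factors turned with the scale. With library sizes alone 6 of the 9 were called higher and none lower, with a median of 0.62. On that scale 91.7% of all genes were called higher and 0.694% lower, with a median of 1.82. Rbpjl was then at 0.03, Xbp1 at 0.77, Gata4 at 0.61 and Nr5a2 at 0.55. The granule proteins then had 2 called lower and 1 higher, with a median of -0.38, Cuzd1 at -0.68 and Rab3d at 0.23.

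Among genes that Reg proteins act through or answer to, Extl3, the described binding partner, fell. It stood at 267, 153, 192 and 194 CPM in KPC and at 60.9, 44.8, 82.6 and 48.6 CPM in KPC-OG, a log2 fold change of -1.77 ± 0.24 (SE; edgeR adjusted p = 8.87e-04) with no overlap. Its log2 fold change was -0.08 with library sizes alone (edgeR adjusted p = 0.721). Of the 10 cytokines listed as inducers 3 had enough reads for a test. The interleukin 1 gene Il1b rose by 1.93 ± 0.46 (SE; edgeR adjusted p = 0.0102) from 0.599 to 2.29 CPM, while Lif (0.31) and Il17f (0.66) did not pass. With TMM 17.4% of all genes were called higher. All 3 cytokines were called higher with library sizes alone, as were 91.7% of all genes. Il22 and Il17a had no read in any library.

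Of the 11 cytokine receptor genes 1 rose and 1 fell with TMM, where 17.4% of all genes were called higher and 16.6% lower. Ifngr1, a chain of the interferon gamma receptor, stood at 13.2, 19.7, 15.4 and 26.3 CPM in KPC and at 49.0, 54.3, 39.5 and 55.5 CPM in KPC-OG (log2 fold change 1.40 ± 0.21 SE, edgeR adjusted p = 0.00131). Il22ra1, the IL-22 receptor chain that acinar cells carry, stood at 19.5, 19.5, 31.6 and 23.0 CPM in KPC and at 12.3, 8.29, 17.7 and 7.71 CPM in KPC-OG. It fell by 1.03 ± 0.28 (SE; edgeR adjusted p = 0.0181), a call that was lost without KPC 3 (edgeR adjusted p = 0.0534). With library sizes alone it was higher in KPC-OG, by 0.60 (edgeR adjusted p = 0.0384). All 11 receptors were then called higher, as were 91.7% of all genes. Of 10 genes of STAT3 signalling and its targets 4 rose and none fell. These were the C/EBP factor genes Cebpb (1.08 ± 0.19 SE) and Cebpd (0.78 ± 0.22), the NF-kB cofactor gene Bcl3 (1.19 ± 0.34) and the feedback inhibitor gene Socs3 (0.72 ± 0.22), with edgeR adjusted p from 0.00241 to 0.0272. Stat3 itself lay at 62.3 to 76.2 CPM in KPC and 70.9 to 83.0 CPM in KPC-OG (0.09 ± 0.12 SE, edgeR adjusted p = 0.609). The count of 4 was 1 without KPC 1 or without KPC-OG 1, 2 without KPC-OG 2, and 0 where library sizes were used and the median gene set to 0. All 10 were called higher with library sizes alone, where the share of all genes was 91.7%.

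Of 15 other acute-phase and host-defence genes tested 10 rose and none fell with TMM, with a median of 1.58. The shares of all genes with TMM were 17.4% called higher and 16.6% lower. With library sizes alone all 15 were called higher, as were 91.7% of all genes. Among the 5 that did not pass with TMM were Nupr1 (-0.70) and Pigr (-0.44). Lcn2, the siderophore-binding lipocalin 2, stood at 3.82, 2.63, 3.98 and 6.59 CPM in KPC and at 39.0, 24.7, 23.0 and 35.2 CPM in KPC-OG (log2 fold change 2.82 ± 0.28 SE, edgeR adjusted p = 4.65e-04). The hydrogen peroxide generator gene Duox2 rose by 2.27 ± 0.25 (SE), its maturation factor gene Duoxa2 by 3.54 ± 0.51 and Lbp, the lipopolysaccharide-binding protein, by 2.37 ± 0.31 (edgeR adjusted p = 5.46e-04 to 0.00118). Secreted C-type lectins outside the Reg family were scarce. The 3 of 10 that could be tested rose, namely Clec11a (1.96 ± 0.38 SE), Sftpd (2.24 ± 0.54) and Clec3b (0.75 ± 0.22), from no more than 3.68 CPM in KPC (edgeR adjusted p = 0.00414 to 0.0265). The call of Clec3b was lost without KPC 1, KPC-OG 2 or KPC-OG 4 (edgeR adjusted p 0.0711 to 0.0906).

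Markers of other cell types were counted on the same TMM scale, on which 17.4% of all genes were called higher and 16.6% lower. Of 9 duct markers 6 rose and 1, Muc1, fell (-0.81). The summed level of the 9 was 399 to 525 CPM in KPC and 693 to 1416 CPM in KPC-OG. Of 12 islet markers 2 rose and 1 fell, near the shares of all genes, with overlapping sums of 563 to 1256 CPM and 596 to 1209 CPM. On library sizes alone 11 of the 12 islet markers, and all tested duct, intestinal and stomach markers, were called higher, as were 91.7% of all genes. Of 8 intestinal markers 7 rose and none fell, with sums of 30.4 to 53 CPM and 116 to 232 CPM. Among the 8 intestinal markers too low for a test, Fabp2, Cdx1, Alpi and Ang4 had no read in KPC, and Cdx2, Apoa4, Muc2 and Itln1 had reads in 1 KPC library each. In KPC-OG these 8 were at most 1.19 CPM except in KPC-OG 1, where Muc2 reached 4.57 CPM and Itln1 3.53 CPM. Among the tested ones, Lgals4, a gut galectin, rose by 2.89 ± 0.37 and Olfm4 by 4.67 ± 0.66 (SE; edgeR adjusted p = 9.50e-04 and 0.00135). Of 9 stomach markers 7 rose and 1 fell, with sums of 834 to 1112 CPM and 1325 to 1666 CPM. The 1 that fell, Tff2 (-0.83), made up most of the KPC sum, at 784 to 1046 CPM in KPC. The part of these cell types in the Reg levels was not tested. Of 4 liver genes 3 rose and none fell, and the summed level of the 7 listed was 3.72 to 8.79 CPM in KPC and 8.22 to 323 CPM in KPC-OG. The calls rested on few libraries. Without KPC-OG 2 and KPC-OG 3, Alb (0.43, edgeR adjusted p = 0.436) and Fabp1 (2.46, edgeR adjusted p = 0.151) were no longer called, and each call was also lost when any of KPC 1 to KPC 4, KPC-OG 2 or KPC-OG 3 was left out alone. Ahsg was lost without KPC 1, KPC 2 or KPC 3. Neither of the 2 tested markers of type 17 lymphocytes, which make IL-22, was called. Without the 2 libraries with high Alb, Reg3a and Reg3d still fell, by 1.55 and 1.93 (edgeR adjusted p = 0.0191 and 0.00208).

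Within a genotype the members rose and fell together across libraries to different degrees. With each gene centred on its group mean of log2(CPM + 1), Pearson's r over the 8 libraries was highest for Reg3b with Reg3g (0.970) and for Reg2 with Reg3d (0.963). It was lowest for Reg1 with Reg3g (0.422) and with Reg3b (0.467). These values describe 8 libraries, and all genes of a library share its scaling factor and depth. For each member the 3 genes outside the family with the highest r were taken from 6539 protein-coding genes at a mean of at least 10 CPM. The highest of so many values over 8 libraries can be large by chance alone, which was not tested. The gene most like Reg1 was Aldh1a1, a retinaldehyde dehydrogenase (r = 0.972), followed by Prdx4 (0.954) and Slc33a1 (0.953). Reg2 and Reg3a both had Pfas, an enzyme of purine synthesis (0.989 and 0.942), and Sec61b, a subunit of the protein translocation channel (0.976 and 0.917), among their nearest 3, the other being Adipor2 (0.967) for Reg2 and Rpl11 (0.942) for Reg3a. Reg3d was nearest to Cdk8 (0.972), Pex5 (0.965) and the secreted scavenger receptor gene Dmbt1 (0.959). Reg3b and Reg3g shared Fbxo42 as the nearest gene (0.966 and 0.961), followed by Tstd2 (0.957) and Atp6v1g1 (0.939) for Reg3b and by Lrg1, an acute-phase glycoprotein (0.940), and Raver1 (0.939) for Reg3g.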

How the data were processed

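Per the file headers, the authors made the estimated counts and the TPM values with Sailfish 0.6.3 (k-mers of 20 bases, 1000 iterations, bias correction) on an Ensembl release 76 transcript index. STAR 2.0.4b, bcl2fastq, limma and edgeR are named too, with no role, per the submitters' processing notes. RNA was ribosome-depleted total RNA, per the labels' protocols. Whether strand was used in counting is not stated in those sources. Of 86127 transcripts 83827 matched GENCODE M21, and the 2300 others (1.45% to 4.23% of reads) were left out.

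Estimated counts were summed per gene, rounded and tested with edgeR 4.0.16 in R 4.3.3 (robust quasi-likelihood, TMM, filterByExpr, Benjamini-Hochberg adjustment over 14267 genes, threshold 0.05). SE is the log2 fold change over the root of F. Ratios used estimated reads plus 0.5. For the ratio to the enzymes, an adjustment over the members had been planned, and it was replaced by 1 over all genes. DESeq2 1.42.0 and limma 3.58.1 were alternatives, and the pipeline was tested on simulated data. Libraries of a genotype differed by far more than counting noise (chi-square per degree of freedom at least 14.7). RefSeq promoters came from a table on GRCm38.p6, and windows and motifs were compared by script. The windows were placed after the sequences were seen.

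The members and lists were chosen with earlier results of these data known. Named genes were all members, all called genes of the binding partner, cytokine, receptor and STAT3 lists, up to 4 called genes (or 2 by level) of each other list, and the 3 genes most like each member. Il17f, Stat3, Nupr1, Pigr, Muc1, Tff2, the Amy2a genes and the untested intestinal markers were added after their values were seen.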

Additional observations from a re-analysis of the deposited data

Results flagged for a closer look

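In 42 groups of 4 libraries (levels of 6 members and 15 ratios, each in both genotypes) the gap between the most extreme library and its neighbour was compared with the range of the group, both on the log2 scale. By chance about 1 in 20 groups would pass the limit used, Dixon's 95% critical value for 4 samples, and 2 did. The ratio of Reg3b to Reg3d in KPC had a log2 gap of 0.877 of its log2 range (0.817 without logs, under the limit). KPC 1 was at 4.77 and the other KPC libraries were at 11.5 to 13.1. The ratio of Reg3g to Reg3a in KPC-OG had a log2 gap of 0.834 of its log2 range (0.798 without logs, under the limit). KPC-OG 2 was at 0.149 and the other KPC-OG libraries were at 0.226 to 0.246.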

How the results depend on the processing

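Scaling between libraries mattered most. With library sizes alone, Reg1 (0.52), Reg2 (0.38), Reg3a (0.14), Reg3b (0.95) and Reg3g (0.96) had log2 fold changes above 0, and Reg3d (-0.054) was no longer called. Limma on log2 TPM gave 0.22 for Reg2 with a pseudocount of 1. For the other 5 genes, in the same order, it gave 0.39, 0.0586, 0.98, 0.96 and -0.21 with a pseudocount of 1, and 0.39, 0.0587, 0.98, 0.96 and -0.21 with 0.1. In these 3 settings 0 members were called lower and 2 higher. The cause was not tested.

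Reg1 and Reg2 lay at the threshold. Reg1 was not called with TMM computed without Lars2 (-1.10), with no filter on low counts (-1.06) or with the number of threads in the file headers as a covariate (-1.04), an alternative chosen after seeing the data. Reg2 was called with library sizes set to the median gene (-1.45), DESeq2 (-1.20), limma-voom (-1.29), without both KPC-OG 2 and KPC-OG 3 (-1.48) and with the replicate number as a block (-1.36).

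Leaving out 1 library in turn gave -1.34 to -0.89 for Reg1 and -1.57 to -0.95 for Reg2, and 2 to 4 members called lower. The log2 ratio to the enzymes ran from 0.86 to 1.16 for Reg1, 0.67 to 0.90 for Reg2, 1.07 to 1.77 for Reg3b and 1.11 to 1.78 for Reg3g. Called inducing cytokines were 1 to 2 higher, cytokine receptors 0 to 3 lower, and STAT3 genes 1 to 4 higher and 0 to 1 lower.

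With library sizes set to the median gene, 2 receptors were called lower, 0 STAT3 genes higher and 1 acute-phase gene lower. Without both KPC-OG 2 and KPC-OG 3, chosen after seeing the data for these lists, 1 STAT3 gene was called lower. With the replicate block 2 receptors were called lower, and 2477 genes were higher and 2418 lower, against 2486 and 2373 without it. Whether the replicate numbers pair the libraries was not settled. Correlations of same-numbered libraries were 0.274, 0.275, 0.0385 and 0.0361, and those of different-numbered libraries ran from -0.325 to 0.197. With 4 libraries a group, the intervals of Reg3b and Reg3g are wide, and low counts kept Reg4 and many listed genes, such as 7 of 10 inducing cytokines, from being tested. By TPM 5 of the 15 member ratios were without overlap, against 6 by reads.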
